A study of Mus musculus with 9 samples.

Results

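The Hedgehog ligand genes Ihh and Shh and 6 genes that receive or answer their signal were followed in intestinal epithelial cells of newborn mouse pups. The 8 genes were chosen by symbol (Ihh, Shh, Ptch1, Smo, Gli1, Gli2, Gli3 and Hhip). Each was read by the brightest probe set, over the 9 arrays, among those carrying its symbol alone. All 8 were measured, out of 18193 genes in all.

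RNA was hybridised to 9 Affymetrix mouse arrays, 3 for each of 3 genotypes, from pups at postnatal day 0 that had received no treatment. Rescue pups were Tfr1 IEC-KO;ROSA26 Tfr1R654A/+, that is, a knockout of the transferrin receptor Tfr1 in intestinal epithelial cells together with a Tfr1 allele at ROSA26 carrying the R654A change, a receptor form known for its loss of transferrin binding. Knockout pups were Tfr1 IEC-KO, and control pups were Tfr1fl/fl. The driver of the deletion, the sex of the pups and the number of pups behind an array do not appear in the sources used here, so p-values measure the spread between arrays, which may be technical. Cells came off pieces of small intestine and proximal colon in 2 mM EDTA over 30 min and passed a 70 µm mesh, and no sort by a surface marker is named.

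Hedgehog proteins are secreted signals. In the intestine they are made by the epithelium and act mainly on the fibroblasts and smooth muscle of the wall beneath it, where they keep the mesenchyme and its muscle layers in place. The receptor Ptch1 holds Smo inactive until a ligand binds, and Smo then turns the Gli factors toward activation. Ptch1, Hhip and Gli1 are themselves switched on by the pathway, and Ptch1 and Hhip dampen it, so their transcripts are widely used as a readout of cells that respond to the ligand.

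RefSeq promoter windows of 300 bases (250 before and 50 after an annotated start, build GRCm38.p6) were matched by symbol for 6 of the 8 genes: Ihh, Ptch1, Smo, Gli2, Gli3 and Hhip. The windows of Ihh, Ptch1 and Gli3 are shown because they stand for the epithelial ligand, the receptor that is also a target, and a factor whose values lay above control on every knockout array. They are written 5′ to 3′ along the gene, and capitals mark the GC box GGGCGG or its reverse complement CCGCCC.
Ihh promoter, chr1:74951623-74951922, strand -: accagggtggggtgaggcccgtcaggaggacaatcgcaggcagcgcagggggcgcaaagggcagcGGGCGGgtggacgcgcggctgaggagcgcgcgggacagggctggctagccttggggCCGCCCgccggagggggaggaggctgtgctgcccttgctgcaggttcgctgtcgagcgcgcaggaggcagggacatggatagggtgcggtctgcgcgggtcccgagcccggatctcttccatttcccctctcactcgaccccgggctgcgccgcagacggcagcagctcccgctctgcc
Ptch1 promoter, chr13:63565686-63565985, strand -: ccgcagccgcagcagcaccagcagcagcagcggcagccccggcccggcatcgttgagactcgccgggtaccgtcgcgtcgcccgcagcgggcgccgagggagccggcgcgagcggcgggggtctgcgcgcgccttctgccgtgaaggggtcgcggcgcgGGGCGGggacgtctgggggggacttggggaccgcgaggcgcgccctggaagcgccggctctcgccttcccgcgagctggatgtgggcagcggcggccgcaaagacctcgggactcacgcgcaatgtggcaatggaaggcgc
Gli3 promoter, chr13:15463473-15463772, strand +: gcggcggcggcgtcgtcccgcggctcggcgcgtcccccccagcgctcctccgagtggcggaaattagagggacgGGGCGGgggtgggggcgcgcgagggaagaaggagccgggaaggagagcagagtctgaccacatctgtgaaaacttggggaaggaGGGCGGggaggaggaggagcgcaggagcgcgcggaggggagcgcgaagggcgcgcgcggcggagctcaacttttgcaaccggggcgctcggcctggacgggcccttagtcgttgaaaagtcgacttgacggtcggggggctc

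These windows are rich in C and G. The share of G and C bases was 72.7% for Ihh, 76.3% for Ptch1 and 71.0% for Gli3, against a median of 52.7% over 32851 promoter windows of the mouse. They held 30, 47 and 39 CG pairs, against a median of 7. A GC box, read on both strands, lay in 5 of the 6 matched windows, all but that of Smo, and in 35.7% of all windows. The consensus bound by Gli factors, TGGGTGGTC, was searched on both strands and does not contain the full GC box. It was in 0 of the 6 windows and in 0.253% of all windows, and the TATA box letters TATAAA were in 0 of the 6 and in 13.6% of all. The search speaks of these letters in these windows only.

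Before the genes are compared, the arrays need a description, since the knockout arrays did not resemble each other. Across genes, which are not independent replicates, arrays correlated with r of 0.987 to 0.990 within rescue, 0.951 to 0.985 within knockout and 0.994 to 0.996 within control. The mean level of 10 epithelial markers ran from 12.05 to 12.21 (log2) over rescue, 12.25 to 12.27 over knockout and 11.96 to 12.04 over control arrays. The markers did not move together: between knockout and control Krt8, Krt18, Krt19 and Cdh1 were called higher, 4 of 10, against 5.29% of all genes, and Cdx2 lower, 1 of 10, against 8.77%. Among them were Krt19 at 1.65 ± 0.35 (adjusted p = 0.019) and Cdx2, an intestinal identity factor, at -0.74 ± 0.14 (adjusted p = 0.011). Epcam, the epithelial adhesion gene, gave 0.41 ± 0.12 (adjusted p = 0.062). All 10 fibroblast markers averaged higher in knockout than in control, where 43.9% of all genes did, and 3 of the 10 were called higher, against 5.29% of all genes. The median marker of the list lay 4.17 and 3.37 above the control mean (log2) in knockout replicates 1 and 2, and 0.30 above it in replicate 3. The list's mean level ran from 8.16 to 8.87 over rescue, 8.07 to 11.3 over knockout and 7.28 to 7.87 over control arrays. On no array did the defining fibroblast genes Col1a1 and Dcn read below 6.85 and 6.78. Knockout replicates 1 and 2 therefore stand apart in their wall cell transcripts, so results are given with and without the arrays concerned.

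The targeted gene, Tfrc in the annotation, checked the genotype only in part. One probe set read 10.7 to 10.9 in rescue, 5.57 to 6.14 in knockout and 6.06 to 6.29 in control arrays, and the brightest read 10.2 to 11.1 in rescue, 9.07 to 11.2 in knockout and 9.88 to 10.8 in control arrays. Of 3 Tfrc probe sets outside the array controls, 2 passed the test between rescue and control, with changes of up to 4.70 (log2). Between knockout and control 0 of the 3 passed limma's test, with changes of -0.36 to 0.04 and a lowest adjusted p of 0.13. Knockout replicate 3 lay below every control array on each of the 3. On the brightest it read 9.07, against 10.8 and 11.2 in knockout replicates 1 and 2. On the dimmest, knockout replicates 1, 2 and 3 read 4.36, 4.46 and 4.09, against 4.56 to 4.72 in control. Where these probe sets lie relative to the deleted part was not analysed here. Sex-linked transcripts followed the genotype: Xist averaged 6.67 in rescue, 12.5 in knockout and 12.2 in control arrays. In comparisons with rescue, sex and genotype cannot be told apart.

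Knockout was set against control to see which transcripts change with the loss of epithelial Tfr1. None of the 8 Hedgehog genes passed the test: 0 of 8, where 14.1% of all genes passed limma's test with adjusted p-values under 0.05. Unadjusted p-values under 0.05 were found for 3 of 8, Gli1, Gli2 and Gli3, against 30.1% of all genes. The ligand Ihh averaged close to control, while the other 7 genes averaged above it. The median change of the 8 genes was 0.85, against -0.04 for all genes (log2). With knockout replicate 3 alone against control the median of the 8 was -0.06.

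Ihh encodes Indian hedgehog, the main ligand of differentiated intestinal epithelium. It read 7.46, 7.10 and 7.47 (log2) in knockout replicates 1, 2 and 3, against 7.48, 7.52 and 7.36 in control replicates 1, 2 and 3. Replicate 2 was the lowest of the 6 arrays and the other 2 knockout arrays lay among the controls. The change was -0.11 ± 0.13 (limma standard error, n = 3 arrays per group), with a 95% interval of -0.40 to 0.18 and an adjusted p = 0.63.

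Shh encodes Sonic hedgehog, a ligand of stem and progenitor compartments in many epithelia. It read 8.0, 6.14 and 5.11 in knockout replicates 1, 2 and 3, against 5.36, 5.38 and 5.43 in the control replicates. Replicate 1 stood alone at the top, replicate 3 lay below every control array, and the groups overlapped. The change was 1.02 ± 0.62 (95% interval -0.40 to 2.45, adjusted p = 0.32). A second Shh probe set did not show the high value of replicate 1: it read 4.53, 4.38 and 4.66 in knockout, against 4.41, 4.73 and 4.83 in control. Both probe sets lay, in control, among the dimmest 40% of genes, where background flattens differences, and the control means of Gli1, Gli3 and Hhip lay there too.

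Ptch1 encodes the Hedgehog receptor and is a target of its own pathway. It read 9.92, 8.93 and 7.54 in knockout replicates 1, 2 and 3, against 7.91, 8.11 and 8.36 in control. On this probe set, the brightest, replicates 1 and 2 lay above all control arrays and replicate 3 below all of them. The change was 0.67 ± 0.51 (95% interval -0.48 to 1.82, adjusted p = 0.43).

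Hhip encodes a membrane protein that binds Hedgehog ligands and withholds them from the receptor. It read 6.09, 5.18 and 4.99 in knockout replicates, against 5.18, 4.76 and 5.43 in control. Replicate 1 was the highest and the other knockout arrays lay inside the control range. The change was 0.30 ± 0.28 (95% interval -0.34 to 0.94, adjusted p = 0.54), and the gene was dim in every group.

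Smo encodes the seven-pass membrane protein that carries the signal past Ptch1. Its representative read 7.99, 7.91 and 5.77 in knockout replicates, against 6.09, 6.46 and 6.12 in control. Here too replicates 1 and 2 were far above control and replicate 3 was below every control array. The change was 1.0 ± 0.53 (95% interval -0.20 to 2.21, adjusted p = 0.25).

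Gli1 encodes an activating transcription factor that is itself a target of the pathway, and marks responding wall cells. It read 6.37, 6.03 and 5.08 in knockout replicates, against 4.53, 4.90 and 4.95 in control. All 3 knockout arrays lay above all 3 control arrays, replicate 3 by a small step. The change of 1.03 ± 0.30 (95% interval 0.35 to 1.71) missed the threshold narrowly (adjusted p = 0.053).

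Gli2, the main activator downstream of Smo, read 8.43, 7.63 and 6.56 in knockout replicates, against 6.53, 6.15 and 6.71 in control. Replicate 3 fell inside the control range. The change was 1.08 ± 0.40 (95% interval 0.16 to 1.99, adjusted p = 0.11). Gli3, which acts mostly as a repressor when no ligand is present, read 7.15, 6.43 and 6.04 in knockout replicates, against 5.67, 5.93 and 5.91 in control. Every knockout array lay above every control array, and the change was 0.70 ± 0.24 (95% interval 0.16 to 1.25, adjusted p = 0.087). Gli1 and Gli3 were thus 2 of 8 genes with every knockout array above every control array, as were 12.7% of all genes.

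**Figure D1:**
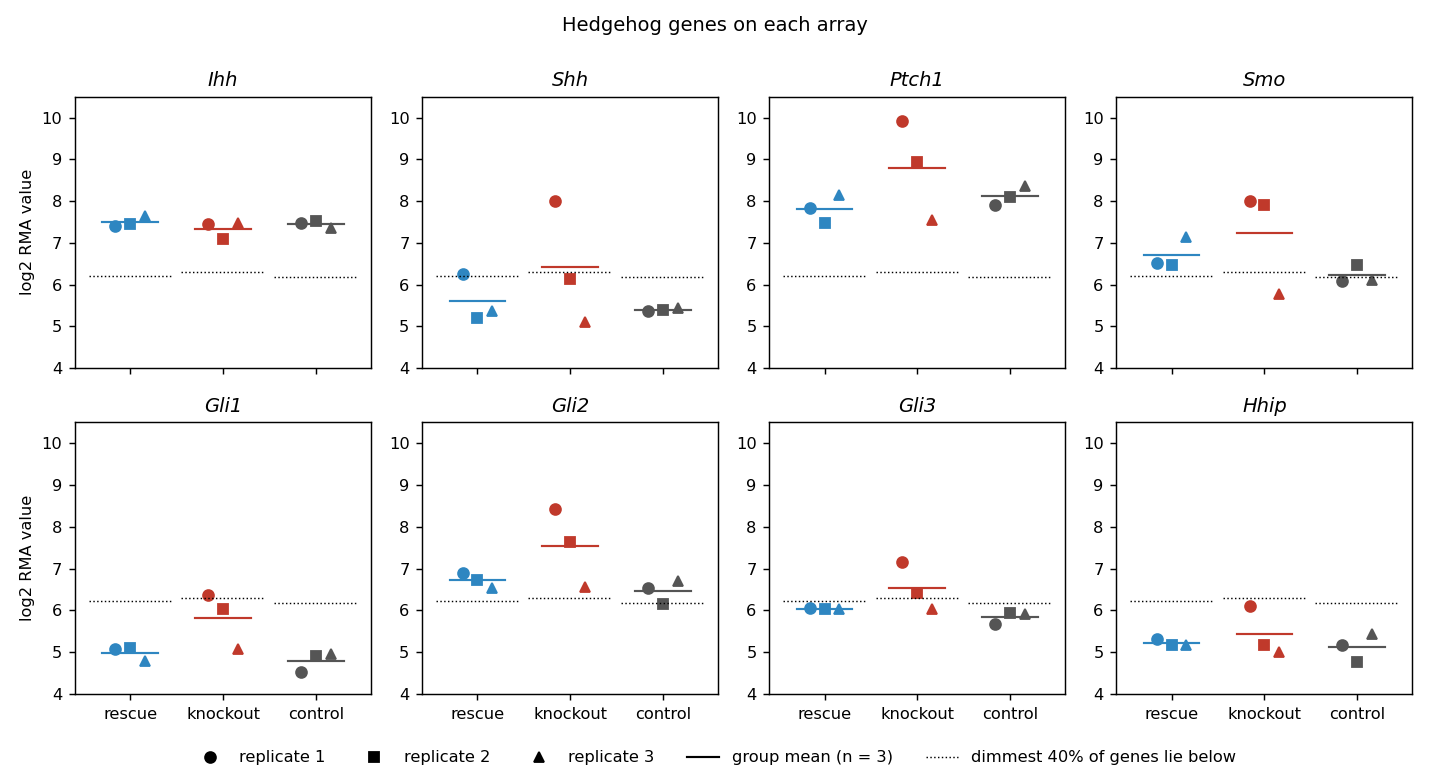
Log2 RMA value (y axis) of the 8 Hedgehog genes in rescue, knockout and control arrays, 3 per group, with group means as lines and the level below which the dimmest 40% of genes lie in each group as dotted lines. Ihh sits between 7.10 and 7.65 on all 9 arrays, while knockout replicates 1 and 2 are above all control arrays for Shh, Ptch1, Smo, Gli1, Gli2 and Gli3.

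More than 1 probe set read 6 of the genes, 19 probe sets in all. Of these, 15 averaged higher in knockout than in control, and 1 of the 19 passed a test over all 34945 single-symbol probe sets, 10.7% of which passed. It was a second Gli3 probe set, which read 6.47, 6.07 and 4.77 in knockout replicates, against 4.35, 4.38 and 4.25 in control. All 3 knockout arrays were above control, and the change was 1.44 ± 0.36 (adjusted p = 0.036). The remaining Gli3 probe set gave 0.04 ± 0.13 (adjusted p = 0.88). For Ptch1 the other probe sets gave 0.30 ± 0.17 and -0.07 ± 0.12 (adjusted p = 0.29 and 0.75), against 0.67 for the brightest. On these other Ptch1 probe sets knockout replicate 3 read 5.22 and 6.49, against 5.14 to 5.37 and 6.31 to 6.39 in control. A second Smo probe set gave 0.61 ± 0.25 (adjusted p = 0.15), with knockout replicate 3 at 5.96, against 5.88 to 6.15 in control. The dimmest Smo probe set read 3.21 to 3.36 on all knockout and control arrays. For both genes, replicate 3 thus lay below every control array on the brightest probe set only.

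**Figure D2:**
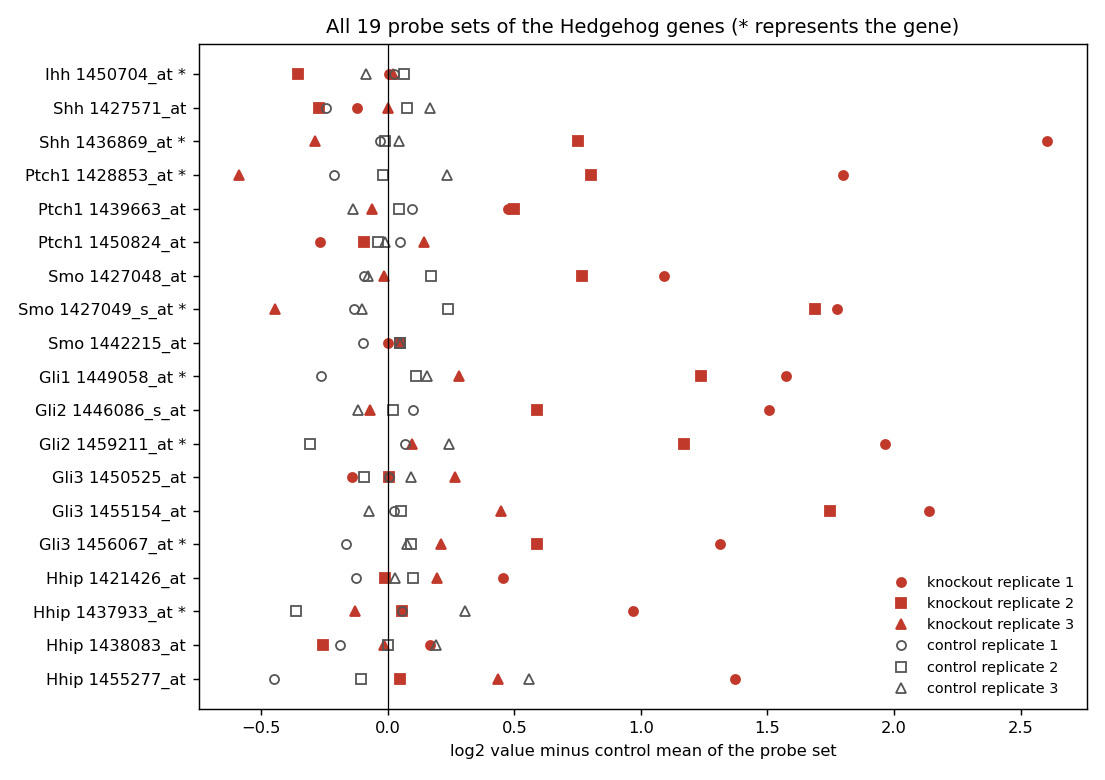
Log2 value minus the control mean of the same probe set (x axis) for the 19 probe sets of the 8 genes, with knockout arrays filled and control arrays open; a star marks the probe set that represents the gene. Knockout replicates 1 and 2 lie to the right for at least 1 probe set of Shh, Ptch1, Smo, Gli1, Gli2 and Gli3, and replicate 3 stays within 0.6 of the control mean for every probe set.

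Knockout replicate 3 decided the outcome. Without it, 6 of the 8 genes passed, each of them higher in knockout, as were 12.8% of all genes: Smo (1.73 ± 0.21, adjusted p = 9.7e-04), Gli1 (1.41 ± 0.17, adjusted p = 9.7e-04), Gli2 (1.57 ± 0.25, adjusted p = 0.0032), Gli3 (0.95 ± 0.20, adjusted p = 0.0092), Ptch1 (1.30 ± 0.31, adjusted p = 0.016) and Shh (1.68 ± 0.50, adjusted p = 0.041). Ihh stayed at -0.17 (adjusted p = 0.37) and Hhip at 0.51 (adjusted p = 0.20). With replicate 3 alone standing for knockout, which assumes that it varies like the arrays of the other groups, 0 of 8 passed against 14.1% of all genes. Then 4 of the 8 changes were below 0, among them Ptch1 at -0.59 ± 0.27 (adjusted p = 0.20) and Smo at -0.45 ± 0.28 (adjusted p = 0.34). With weights that count stray arrays less, Gli1, Gli2, Gli3, Ptch1 and Smo were called higher, 5 of 8, against 15.2% of all genes. The weights are not listed here, and knockout replicate 2 may count most in them. Under them, changes of Bmp7 (-1.78 to -2.11), Bmp2 (1.87 to 1.51), Lrp2, Mycn and Prkaca, genes of the lists below, moved toward that array. The change of Igfbp3 did not (2.34 to 2.28). With the mean over all probe sets of a gene, Gli1 (adjusted p = 0.0496) and Gli3 (adjusted p = 0.027) were called higher, 2 of 8, against 5.46% of all genes. With the replicate number as a block 0 of 8 passed, against 13.2% of all genes.

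Transcripts of other cell types moved with these values. In knockout replicates 1, 2 and 3, Gli1 lay 1.57, 1.24 and 0.28 above the control mean, Ptch1 1.80, 0.80 and -0.59, and Gli2 1.96, 1.17 and 0.10. Over the same arrays the smooth muscle median lay at 3.71, 2.30 and 0.16, and the median of neurons and glia at 2.36, 0.88 and 0.18. Of the 6 markers of neurons and glia 5 averaged higher in knockout. Among these Sox10 was nearly level with control (0.07 ± 0.09, adjusted p = 0.70). S100b averaged lower (-0.59 ± 0.39, adjusted p = 0.36). It read 6.15, 5.96 and 7.03 in knockout replicates 1, 2 and 3, against 7.18, 6.96 and 6.76 in control. Endothelium lay at 1.58, 0.35 and 0.16, against -0.53, -0.01 and 0.53 in control replicates 1, 2 and 3. Its values in knockout replicates 2 and 3 were thus inside the control range. Leukocytes lay at 0.89, 0.51 and 0.15, against -0.18, 0.06 and 0.09 in control. Of the 6 leukocyte markers 5 averaged higher in knockout. The brightest, Csf1r, was called lower (-0.90 ± 0.23, adjusted p = 0.037), 1 of 6 against 8.77% of all genes. It averaged 13.2 in control, where Ptprc, Cd52, Laptm5 and Fcer1g were dim. Whether its values come from leukocytes was not tested. The order of the 3 arrays was thus the same for Shh, Ptch1, Smo, Hhip and the Gli genes as for the medians of these 4 lists. The fibroblast median kept that order too, while the mesothelium median was highest in replicate 2 (1.10, 2.05 and 0.44). The median epithelial marker lay 0.33, 0.17 and 0.31 above control, with 5 of the 10 called in 1 direction or the other. Ihh, whose source is the epithelium, lay at 0.0056, -0.35 and 0.020. What part the other cell types have in the Hedgehog values was not tested beyond the fits with a marker mean. In bulk RNA, more cells of a type and more RNA per cell cannot be told apart.

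With the mean of the fibroblast markers as a covariate 0 of 8 passed, against 10.8% of all genes, and the median of the 8 changes was -0.18. Gli1 then stood at 0.12 (adjusted p = 0.75), Gli3 at 0.06 (adjusted p = 0.91) and Ptch1 at -0.87 ± 0.32 (adjusted p = 0.13). The covariate is itself highest in knockout replicates 1 and 2, so it also takes away any difference between the genotypes that runs with it.

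**Figure D3:**
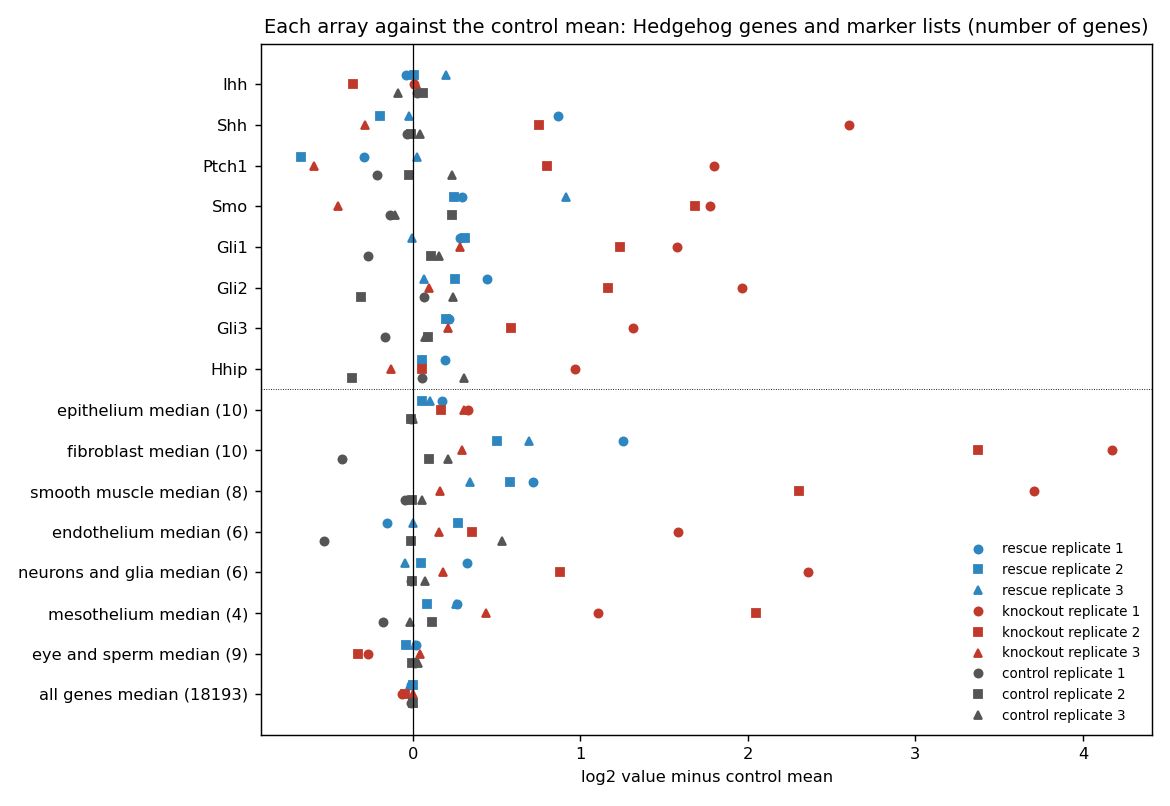
Log2 value minus the control mean (x axis) on each of the 9 arrays, for the 8 Hedgehog genes above the dotted line and for the medians of marker lists below it. The fibroblast median lies at 4.17, 3.37 and 0.30 in knockout replicates 1, 2 and 3, and the receptor and Gli genes keep that order while Ihh stays within 0.36 of 0.

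Whether the other Hedgehog genes, the ligand Shh included, moved apart from the ligand Ihh was tested with a difference taken on each array. It was the deviation of each gene from its control mean minus that of Ihh. In knockout arrays this difference was 1.57, 1.59 and 0.26 for Gli1, against -0.29, 0.05 and 0.24 in control arrays, a mean difference of 1.14. For Ptch1 it was 1.79, 1.16 and -0.61 in knockout, against -0.24, -0.08 and 0.32 in control. The Gli1 and Gli3 differences did not overlap between the groups, and those of the other 5 genes did. The share of all genes without overlap was not computed for this difference. By plain values, 12.7% of all genes had every knockout array above every control array. A two-sided exact permutation test of 3 arrays against 3 cannot go below p = 0.1. That value was reached by Gli1 and Gli3 between knockout and control, and by Smo between rescue and control. Over the 21 such tests made in the 3 comparisons the adjusted p was at least 0.525 throughout. With 3 arrays per group this test could not reach the threshold, and the difference between Ihh and the other genes was tested in no other way.

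Rescue was set against knockout to see what the added R654A allele changes. None of the 8 genes passed (0 of 8, against 2.31% of all genes), 0 of 8 had groups without overlap, against 18.1% of all genes, and 1 of 8, Gli1, had an unadjusted p under 0.05, against 18.9% of all genes. The ligand Ihh averaged slightly higher in rescue and the other 7 averaged lower. The median change was -0.66, against 0.04 for all genes. The knockout arrays are the same ones as in the comparison with control, so the opposite signs of the 2 comparisons are not separate observations.

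Ihh read 7.41, 7.46 and 7.65 in rescue replicates 1, 2 and 3, and its change from knockout was 0.16 ± 0.13 (95% interval -0.13 to 0.45, adjusted p = 0.54). Gli1 read 5.08, 5.11 and 4.79 in rescue, against 6.37, 6.03 and 5.08 in knockout. Rescue arrays lay below knockout replicates 1 and 2 and about level with replicate 3, and the change was -0.83 ± 0.30 (adjusted p = 0.18). Ptch1 read 7.83, 7.46 and 8.15 in rescue, with a change from knockout of -0.98 ± 0.51 (adjusted p = 0.33). Those rescue values again lie below knockout replicates 1 and 2 and around replicate 3.

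Gli2 read 6.90, 6.72 and 6.53 in rescue (change from knockout -0.82 ± 0.40, adjusted p = 0.31). Gli3 read 6.05, 6.03 and 6.04 in rescue, a narrower range than in either other group (change from knockout -0.50 ± 0.24, adjusted p = 0.30). Smo read 6.52, 6.46 and 7.14 in rescue (change from knockout -0.52 ± 0.53, adjusted p = 0.66). Rescue replicate 3 was the highest of its group for Smo, Ptch1 and Ihh, while replicate 1 was the highest for Shh, Gli2, Gli3 and Hhip. Shh read 6.26, 5.20 and 5.37 in rescue (change from knockout -0.81 ± 0.62, adjusted p = 0.54). Rescue replicate 1 was also the array of its group with the highest fibroblast and smooth muscle medians, at 1.26 and 0.72 above control, and the part of these cells in its Shh value was not tested. Hhip read 5.32, 5.18 and 5.18 in rescue (change from knockout -0.20 ± 0.28, adjusted p = 0.76).

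Without knockout replicate 3, 5 of 8 genes passed between rescue and knockout, each lower in rescue, as were 8.74% of all genes. Ptch1 fell by 1.61 (adjusted p = 0.011), Gli2 fell by 1.31 (adjusted p = 0.012), Smo fell by 1.24 (adjusted p = 0.0074), Gli1 fell by 1.21 (adjusted p = 0.0037) and Gli3 fell by 0.74 (adjusted p = 0.039). Array weights, for which the same limit holds, gave 4 of 8 lower, without Gli3, against 7.57% of all genes. The replicate block gave 0 of 8, against 1.41% of all genes. With replicate 3 alone standing for knockout, 0 of 8 passed against 6.02% of all genes, and Smo stood higher in rescue by 0.93 ± 0.28 (adjusted p = 0.10).

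**Figure D4:**
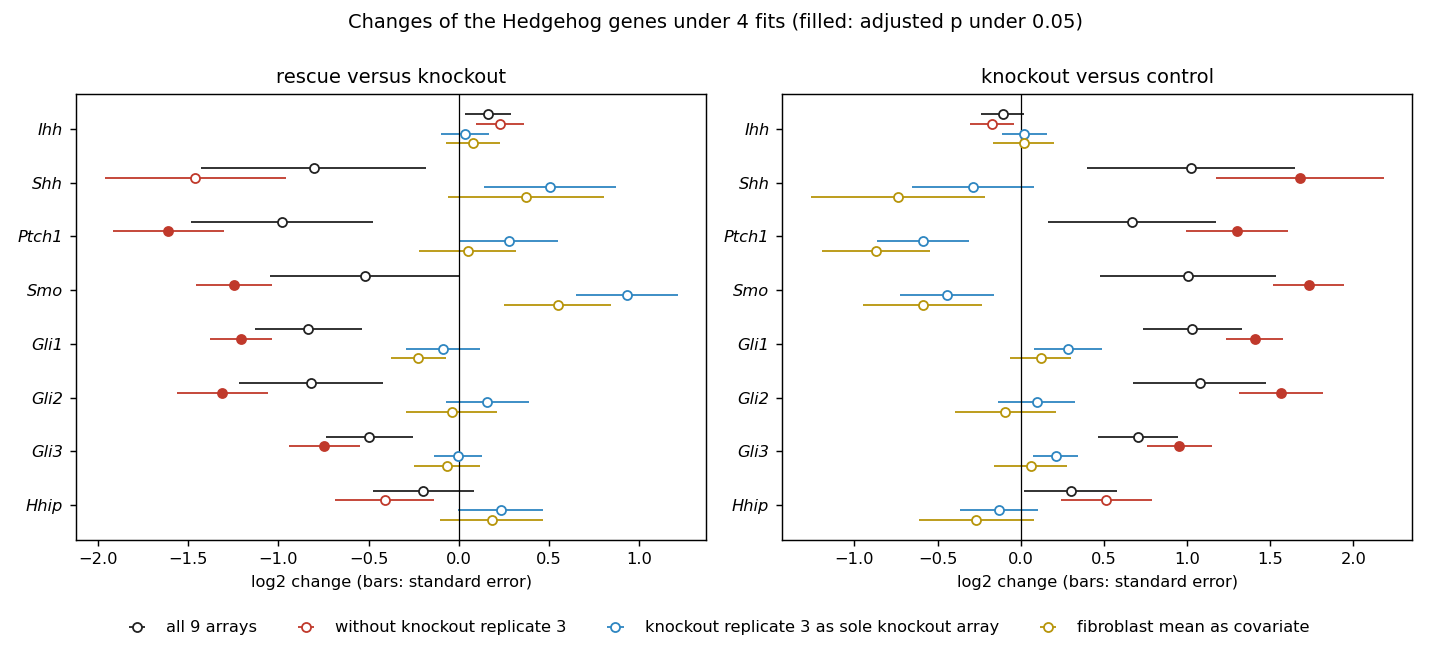
Log2 change of each Hedgehog gene (x axis, bars are limma's standard error) between rescue and knockout on the left and between knockout and control on the right, fitted with all 9 arrays, without knockout replicate 3, with replicate 3 alone standing for knockout, and with the mean of the fibroblast markers as a covariate. Filled points passed an adjusted p of 0.05, and they occur only without knockout replicate 3: 5 genes on the left and 6 on the right.

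Between rescue and control, the comparison that asks where rescued cells still differ, 0 of 8 passed, against 0.126% of all genes, and 0 of 8 had an unadjusted p under 0.05 in limma's test, against 6.62% of all genes. The median change of the 8 genes was 0.20, against -0.01 for all genes. Ihh differed by 0.05 ± 0.13 (95% interval -0.23 to 0.34) and Gli1 by 0.20 ± 0.30 (95% interval -0.48 to 0.87). The 95% interval for Ptch1 was -1.46 to 0.84 and that for Smo -0.72 to 1.69, so both intervals hold changes of more than 2-fold. Rescue arrays lay above all control arrays for 2 of 8 genes, Gli3 and Smo, as they did for 6.74% of all genes, and the Smo step was within 0.01. The replicate block gave 0 of 8, against 0.066% of all genes.

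The wider pathway was followed in 27 of 28 listed genes: Dhh, the remaining ligand, proteins that release or carry the ligand, co-receptors, and the cilium and kinase machinery that acts on the Gli factors. Between knockout and control 0 rose and 2 fell, against 5.29% of all genes higher and 8.77% lower. The median change was 0.01, against -0.04 for all genes. Lrp2, a large endocytic receptor that also binds Sonic hedgehog, read 6.48, 6.07 and 6.5 in knockout replicates, against 8.24, 8.11 and 8.44 in control. It was lower in every knockout array, replicate 3 included, and fell by 1.91 ± 0.43 (3.76-fold, adjusted p = 0.022). In rescue it read 8.87, 7.28 and 6.96, a wide spread. The Lrp2 call held in 4 of 9 leave-one-array fits. It was lost without any 1 of the 3 control arrays, or without knockout replicate 1 or 2 (adjusted p up to 0.084). It also missed the threshold with each of the 3 marker covariates (adjusted p = 0.089 to 0.107), and passed in 12 of 21 alternatives. Prkaca, a catalytic subunit of protein kinase A, which restrains the Gli factors, fell by 0.42 ± 0.11 (1.34-fold, adjusted p = 0.041). Its probe set is of the x type, which may also bind other transcripts. Prkaca passed in 3 of 9 leave-one-array fits, whose highest adjusted p was 0.14, and in 7 of 20 alternatives in all. Among the fits that lost it were quantile normalization, the replicate block, the 2 groups fitted alone and each of the 3 marker covariates.

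The co-receptor Gas1, which presents ligand to Ptch1 and is made by wall cells, had the largest change of the list, 2.55 ± 1.01, without passing (adjusted p = 0.13). It read 11.1, 11.2 and 6.89 in knockout replicates, against 7.27, 7.32 and 7.03 in control. Replicates 1 and 2 were far above control and replicate 3 was below it. The co-receptors Boc and Cdon gave 0.41 ± 0.14 (adjusted p = 0.083) and 0.43 ± 0.31 (adjusted p = 0.40). Hhat, the enzyme that puts palmitate on the ligand in the cell that makes it, read 5.44, 5.70 and 5.96 in knockout, against 6.12, 6.19 and 6.39 in control. All knockout arrays were lower, but the change of -0.54 ± 0.17 did not pass (adjusted p = 0.075). The ligand Dhh read 5.75, 5.84 and 5.65 in knockout, against 5.34, 5.50 and 5.47 in control, so that all knockout arrays, replicate 3 included, were slightly higher (0.31 ± 0.10, adjusted p = 0.064). Dhh was dim in every group. Ulk3, a kinase that acts on Gli proteins, gave -0.37 ± 0.12 (adjusted p = 0.078), and Evc2, a ciliary partner of Smo, 0.41 ± 0.13 (adjusted p = 0.078). Without knockout replicate 3, 8 of the 27 genes were called higher, against 12.8% of all genes, and 4 lower, against 14.7%, while with replicate 3 alone standing for knockout 0 of 27 passed, against 14.1%, with Lrp2 at -1.76 (adjusted p = 0.12). With all arrays 0 of the 27 passed between rescue and knockout, against 2.31% of all genes, and 0 of the 27 between rescue and control, against 0.126%. Disp1, which releases the ligand from its source, gave -0.21 ± 0.18 (adjusted p = 0.50), and Sufu, the cytoplasmic inhibitor of the Gli factors, -0.17 ± 0.15 (adjusted p = 0.51).

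Gut genes known to respond to Hedgehog signals, most of them genes of the wall, had a median change of 0.78 over all 19 listed, against -0.04 for all genes. In this list 2 rose, against 5.29% of all genes, and 2 fell, against 8.77%. Bmp2, a bone morphogenetic protein that intestinal epithelium also makes, read 10.9, 9.80 and 10.2 in knockout replicates, against 8.24, 8.41 and 8.59 in control. Every knockout array was higher by over 1 log2 unit, and Bmp2 rose by 1.87 ± 0.33 (3.67-fold, adjusted p = 0.0086). It read 10.1, 9.70 and 8.93 in rescue, above all control arrays, with a change from control of 1.16 ± 0.33 (adjusted p = 0.38). Igfbp3, which binds insulin-like growth factors, read 9.71, 8.91 and 7.98 in knockout, against 5.98, 6.61 and 6.99 in control, and rose by 2.34 ± 0.41 (5.06-fold, adjusted p = 0.0087). It fell by 2.07 ± 0.41 between rescue and knockout (adjusted p = 0.043), where 1.08% of all genes were lower. That fall passed in 1 of 9 leave-one-array fits, whose highest adjusted p was 0.15.

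Bmp7, another bone morphogenetic protein, read 7.59, 6.98 and 7.70 in knockout, against 9.37, 9.00 and 9.26 in control. All knockout arrays lay lower by over 1 log2 unit, and Bmp7 fell by 1.78 ± 0.20 (3.44-fold, adjusted p = 0.0015). In rescue it read 9.10, 8.81 and 8.92, and it rose by 1.52 ± 0.20 over knockout (2.87-fold, adjusted p = 0.0099), where 1.23% of all genes were higher. That rise missed the threshold with the endothelial covariate or with the 2 groups fitted alone (adjusted p up to 0.068). Both Bmp7 calls held in all 9 fits without 1 array, as did the knockout calls of Bmp2 and Igfbp3. With a marker mean as covariate Bmp2 stood at 1.56 (fibroblast), 1.46 (smooth muscle) and 1.52 (endothelium), and missed the threshold each time (adjusted p = 0.082, 0.087 and 0.061). Igfbp3 stood at 1.2 and 1.24 with the fibroblast and smooth muscle means and missed it (adjusted p = 0.069 and 0.056), but passed with the endothelial mean at 1.5 (adjusted p = 0.0065). The Bmp7 change between knockout and control passed under every alternative tried. Bmp2 at 1.79, Igfbp3 at 1.45 and Bmp7 at -1.50 kept their direction with replicate 3 alone standing for knockout, the knockout array whose wall cell markers lay nearest to control. The median change of the 19 genes in that fit was 0.13. Without replicate 3, 11 of the 19 were called higher, against 12.8% of all genes, and 2 lower, against 14.7%. Between rescue and control 0 of the 19 passed, against 0.126% of all genes. Mycn, a proliferation factor, fell by 0.96 ± 0.22 (1.95-fold, adjusted p = 0.025) and passed in 5 of 9 leave-one-array fits, whose highest adjusted p was 0.099. With the mean over its probe sets Mycn stood at -0.42 (adjusted p = 0.099) and with replicate 3 alone standing for knockout at -0.67 (adjusted p = 0.14). It also missed the threshold with each of the 3 marker covariates and with the 2 groups fitted alone, so that it passed in 11 of 21 alternatives.

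The forkhead factor Foxf1, a direct target in gut mesenchyme, read 9.35, 7.60 and 7.15 in knockout, against 6.38, 6.78 and 7.24 in control (1.23 ± 0.50, adjusted p = 0.14). Its relative Foxf2 gave 0.76 ± 0.35 (adjusted p = 0.19), and Foxl1, the marker of fibroblasts beneath the epithelium, 5.81, 5.81 and 5.93 in knockout, against 5.84, 5.80 and 5.92 in control. Foxf1 was highest in knockout replicate 1, and Foxl1 stayed between 5.69 and 5.93 on all 9 arrays. Foxl1 and Foxf2 were dim in every group. The mesenchymal factors Osr1 and Tcf21 gave 1.66 ± 0.47 (adjusted p = 0.051) and 2.58 ± 0.77 (adjusted p = 0.059), with replicate 3 at 5.29 and 5.44, against 4.72 to 5.07 and 4.61 to 5.44 in control. Osr1 and Tcf21 were dim in control and in rescue. Nkx2-3, a homeobox gene of the gut wall, gave 0.78 ± 0.25 (adjusted p = 0.076), and Igfbp4, another binder of insulin-like growth factors, 1.89 ± 0.68 (adjusted p = 0.10).

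**Figure D5:**
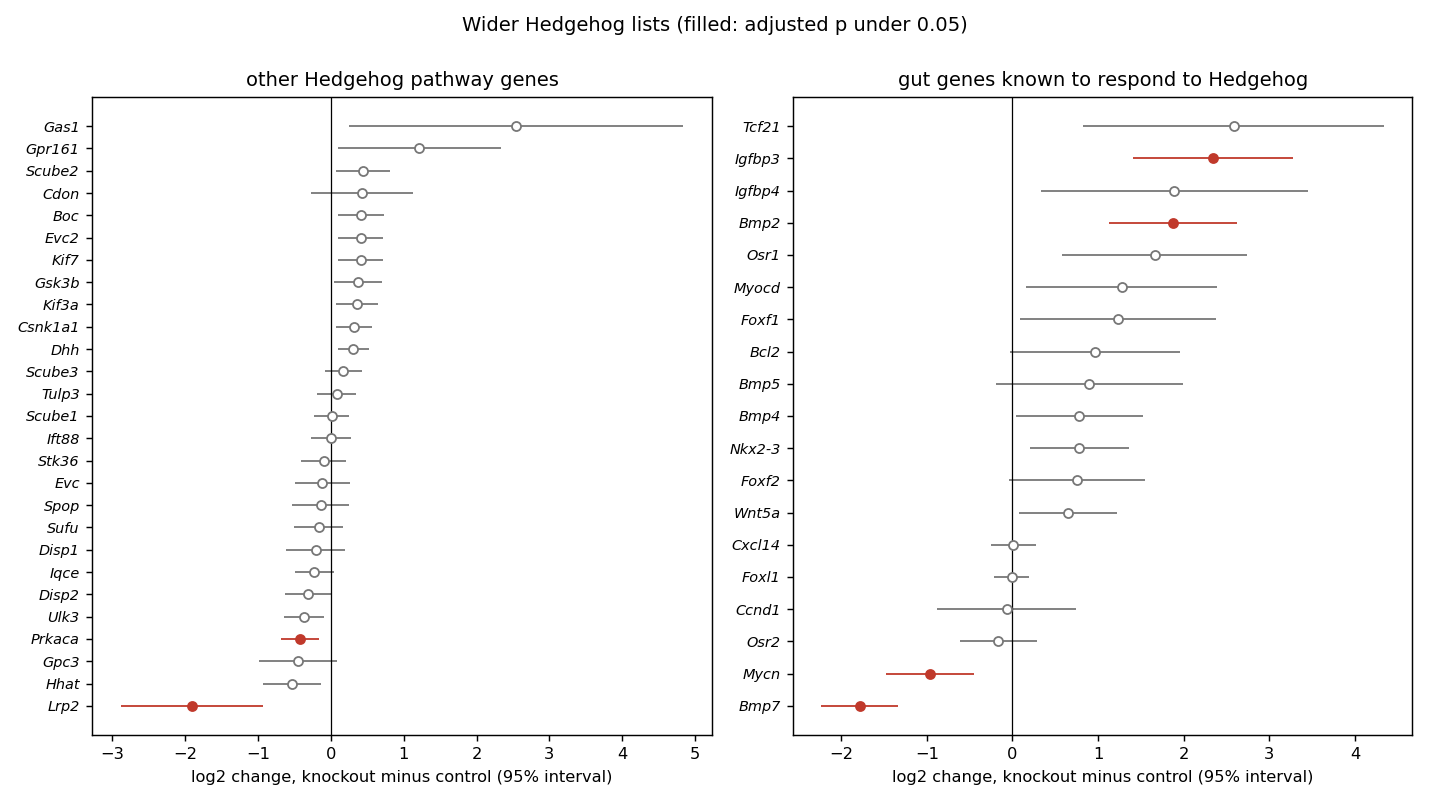
Log2 change between knockout and control (x axis, 95% interval) for 27 further Hedgehog pathway genes on the left and 19 gut genes known to respond to Hedgehog on the right, ordered by size. Filled points passed an adjusted p of 0.05: Lrp2 and Prkaca on the left, both lower, and Igfbp3, Bmp2, Mycn and Bmp7 on the right.

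The genes whose values ran most like those of Gli1 over the 9 arrays, among 10916 genes outside the dimmest 40%, were Nin (Pearson r = 0.995), Col6a2 (0.992), Pcbp3 (0.991), Wwtr1 (0.991) and Lamb1 (0.991). Col6a2, a collagen chain, and Lamb1, a laminin chain, are matrix genes. Over the 7 arrays without knockout replicates 1 and 2 the 5 coefficients were 0.93 to 0.97. The genes most like Ihh were Ubxn11 (r = 0.893), Cask (0.857), Slc6a9 (0.841), Pcdh1 (0.838) and B930059L03Rik (0.837). Over the 7 arrays without knockout replicates 1 and 2 these were 0.89, 0.53, 0.78, 0.33 and 0.20. The coefficients are the highest of many and describe these arrays, which share 3 genotypes.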

How the data were processed

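Values are log2 RMA intensities per probe set as deposited; RMA and Partek 6.5 are named per the submitters' processing notes, but the role of each, the background step and any filter do not appear in the sources used here. There were 45101 probe sets on each of 9 arrays, with array medians of 5.93 to 6.00, and 0 of 36 array pairs were identical. They were used with no further scaling. The number of arrays limits the precision. Probe sets were named from the 2016 platform annotation: 34958 carried 1 symbol, 932 several and 9211 none. After array controls were left out, 34945 probe sets gave 18193 genes, represented by the brightest.

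Groups were compared with limma 3.58.1 in R 4.3.3, in 1 model of 3 group means over all 9 arrays with lmFit and eBayes. P-values are two-sided and adjusted over all genes by Benjamini and Hochberg, with a threshold of 0.05. The test was checked on simulated data with independent noise of equal spread in all groups. That check does not cover arrays that differ within a group, as the knockout arrays do. A gene is called dim where its group mean lies among the dimmest 40% of genes.

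The members, gene lists and tests were chosen with earlier results of these data known. Named beyond the 8 genes were those called in the 2 wider lists, the 4 next by p in each list, and the 5 genes most like Ihh and Gli1. Gas1, Boc, Cdon, Disp1, Sufu, Foxf1, Foxf2 and Foxl1 were named for their roles after their values were seen. Tests were repeated with each array left out, other summaries of probe sets, filters, scalings, weights, blocks and marker covariates. Replicate numbers were checked for pairing: the deviations of same-numbered arrays correlated with r from -0.22 to 0.40, over 0.1 in 2 of 9 pairs, so no pairing was assumed.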

Additional observations from a re-analysis of the deposited data

How the results depend on the processing

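Over 21 alternatives and 3 comparisons, 419 of 492 single-gene changes kept their direction and side of the threshold, 22 passed it newly and 51 turned sign, 44 of these with a wall cell covariate or with replicate 3 alone standing for knockout. Between knockout and control, 2 of 8 genes passed with the mean over probe sets, 5 with array weights, and 0 to 6 in the fits without 1 array. Between rescue and knockout, 4 passed with array weights and 0 to 5 in the fits without 1 array. Between rescue and control, 0 passed under every alternative. With the replicate number as a block 0 of 8 passed in each comparison, and it changed no call among the 8 genes. The endothelial and smooth muscle covariates were chosen after seeing the data. Over all genes, 2559 passed between knockout and control, against 936 to 4998 in the fits without 1 array, 6395 with array weights, 1655 with the 2 groups fitted alone, and 900 and 1494 with the endothelial and smooth muscle covariates. Between rescue and knockout 420 passed, against 105 to 2793, 2453 and 30 under the first 3 of these, 76 with the endothelial covariate, 1057 with the fibroblast covariate, 257 with the replicate block and 1096 with replicate 3 alone standing for knockout. Between rescue and control 23 passed, against 2 to 136 without 1 array and up to 355 otherwise. Prkaca gave no value with plain probe sets only, and with the dimmest genes left out 4 of the 8 Hedgehog genes gave none. The cause of each turn of sign was not tested.

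With the fibroblast covariate the knockout changes from control turned for Ihh (0.017), Shh (-0.74), Ptch1 (-0.87), Smo (-0.59), Gli2 (-0.092) and Hhip (-0.27), those of rescue from knockout for Shh (0.37), Ptch1 (0.051), Smo (0.55) and Hhip (0.18), and those of rescue from control for Shh (-0.36), Smo (-0.043), Gli1 (-0.10), Gli2 (-0.13), Gli3 (-0.0062) and Hhip (-0.086). With the smooth muscle covariate they turned between knockout and control for Shh (-0.74), Ptch1 (-0.76), Smo (-0.40), Gli2 (-0.10) and Hhip (-0.33), between rescue and knockout for Shh (0.42), Ptch1 (0.017), Smo (0.46) and Hhip (0.24), and between rescue and control for Shh (-0.32), Gli1 (-0.063), Gli2 (-0.10) and Hhip (-0.090). With the endothelial covariate Ptch1 (-0.17) and Hhip (-0.14) turned between knockout and control, and Shh (0.087), Smo (0.11) and Hhip (0.22) between rescue and knockout. With replicate 3 alone standing for knockout, Ihh (0.020), Shh (-0.29), Ptch1 (-0.59), Smo (-0.45) and Hhip (-0.13) turned against control, and rescue against it for Shh (0.50), Ptch1 (0.28), Smo (0.93), Gli2 (0.16) and Hhip (0.23). With array weights Hhip turned between rescue and control (-0.021).

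Leaving out 1 array gave -0.17 to 0.013 for Ihh and -0.036 to 0.51 for Hhip between knockout and control, -0.41 to 0.14 for Hhip between rescue and knockout, and -0.017 to 0.10 for Ihh, -0.11 to 0.42 for Shh and -0.079 to 0.25 for Hhip between rescue and control. Low signal limits Hhip, Gli1, Gli3 and Shh, whose control means lie among the dimmest 40% of genes.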
